A study of Mus musculus with 10 samples.

Results

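The components of Toll-like receptor signalling are described here over 5 treatments of RAW264.7, a transformed mouse line that resembles macrophages. The set holds 44 genes, chosen by name as receptors, co-receptors, adaptors, kinases, ubiquitin ligases and inhibitors of the pathway, out of 23605 genes with a current symbol on the array. They carry 63 of the 55681 probes. Each group has 2 arrays: EtoH (ethanol, the solvent group), dexamethasone (Dex), fluticasone furoate (FF), and VSG22 and VSGC12, the last 2 known here only by their code names. The glucocorticoids were added at 100 nM, and lipopolysaccharide (LPS, the bacterial cell-wall component that Toll-like receptor 4 detects) followed 1 hour later at 1 µg/ml, with RNA taken at 16 hours. Whether EtoH cells also received LPS, and whether replicates came from separate cultures, is not stated in the labels. EtoH is therefore taken as ethanol without glucocorticoid, and p-values measure the spread between these samples, which may be technical. If EtoH cells had no LPS, changes due to glucocorticoid and to LPS cannot be told apart in any comparison with EtoH. A change in total RNA per cell and a change in the number of expressing cells cannot be told apart in such samples.

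Toll-like receptors are membrane proteins that bind microbial molecules at the cell surface or in endosomes. Ligand binding recruits the adaptors MyD88 and TIRAP, which engage IRAK kinases, the ubiquitin ligase TRAF6, the TAK1 complex and the IκB kinases, and ends in NF-κB and MAP kinase activity. From endosomes, the adaptors TRIF and TRAM lead through TRAF3, TBK1 and IKKε to interferon genes. Macrophages limit the signal with inhibitors such as IRAK-M and A20, and glucocorticoids are known to act on several steps.

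The arrays had between 40.1% and 44.4% of their spots well above background, and 0 saturated. Levels are log2 signals relative to the 75th percentile of their own array, and levels of different probes are not compared. Probe positions are those of the array design on mm9, and they were not matched to exons here, since no mm9 annotation was used. Of 10 macrophage markers, 9 were well above background on all 10 arrays and the other, Marco, on 7, while 0 of 5 B cell and 0 of 5 epithelial markers were on any array. Of the fibroblast markers, Lum was so on 10 arrays, Dcn on 8, Col3a1 on 2, and Col1a1, Col1a2 and Pdgfra on 0. Of the dendritic cell markers, Siglech and Zbtb46 were so on 10 and Flt3, Xcr1 and Ccr7 on 0. Zbtb46 fell by 0.59 on the log2 scale, and Siglech (0.14), Lum (0.57) and Dcn (-0.01) were not called. The T cell markers Cd3e, Cd4, Lck and Il7r were well above background on all arrays and Cd3d and Cd8a on 0. Summed over the list, linear T cell marker signal was 44.2 to 46 times the 75th percentile in EtoH and 55.5 to 131 in the glucocorticoid groups. Of that list Cd4 rose by 1.23 on the log2 scale and Il7r fell by 1.51, with Cd3e at -0.16 and Lck at 0.08, neither called. The sum for neutrophil and mast cell markers, of which Ngp, Ltf and Mcpt4 were on 0 arrays, was 30.7 to 40 against 38.1 to 137, and that for macrophage markers 307 to 309 against 420 to 471. Elane (1.12) and Tpsb2 (0.57) rose and Camp (-0.52) fell in the former list. Csf1r (1.18), Itgam (1.29) and Lyz2 (0.94) rose, Ptprc (-0.68) and Adgre1 (-0.24) fell and 5 did not pass the test in the latter. The part of these differences in the results below was not tested. The SD of the difference between replicates over all genes was 0.61 in Dex and 0.31 to 0.38 in the other groups.

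Of the 44 genes, 42 were measured, 41 of them well above background on all 10 arrays and Sigirr on 5. In the mean of the 4 glucocorticoids against EtoH, the pathway moved both ways: 12 genes rose and 12 fell. The largest rises were those of Irak3, which encodes the inhibitory kinase-like protein IRAK-M, and of the endosomal receptor Tlr13, each 1.98-fold. The largest falls were those of Tollip, an adaptor that restrains IRAK1 (1.82-fold), and Traf1, a signalling adaptor (1.74-fold). The 24 called genes are 57.1% of those measured, beside 44.2% of all 18028 genes tested. The 12 that rose are 28.6%, beside 21.6% of all genes, and the 12 that fell are 28.6%, beside 22.5%. All genes here include entries without a current symbol, since 13515 of the 18051 measured have one. The set is also better detected than all genes. When only probes well above background on all 10 arrays were used, 24 of 41 were called, beside 7623 of 15666 genes in all. The median log2 change was 0.02 over the measured genes and 0.00 over all. Scaling shifts this balance: with the array median subtracted, which moves the median of all genes to 0.118, 7 of the set rose and 2 fell. These 9 of 42 stand beside 3760 of all 18028 genes, close to the same share. With a percentile over detected probes (median -0.078), 8 rose and 13 fell. Of all calls, 49% were higher in the main processing, 70.3% with the array median and 39.3% with the percentile over detected probes.

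**Figure D1:**
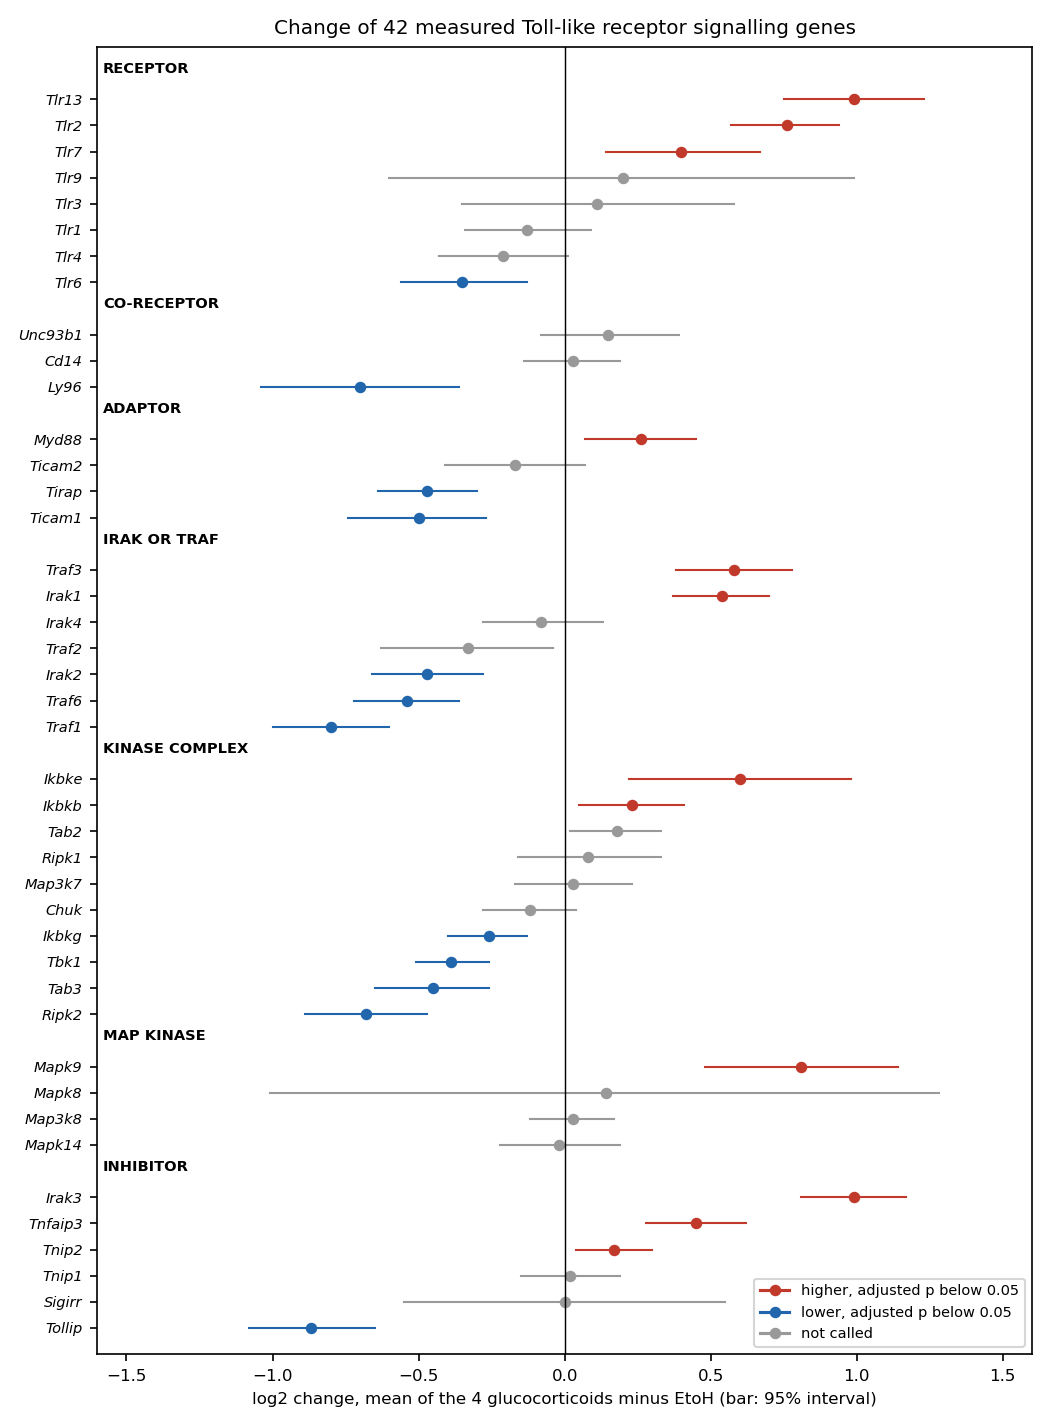
The log2 change of each of the 42 measured genes, as the mean of the 4 glucocorticoids minus EtoH, is plotted with its 95% interval from the fit, by role. Red points are the 12 genes called higher and blue points the 12 called lower; both lie in most role groups.

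All 8 glucocorticoid arrays lay above both EtoH arrays for 12 genes, against 22.9% of all genes, and below both for 12, against 24.7%. Of the 24 called genes, only Myd88 and Ikbkb overlapped between EtoH and the glucocorticoid arrays. The 24 had the same direction on each of the 2 slides, and with the slide as a replicate block the counts were also 12 and 12. These genes were called on the same arrays. Their slide agreement and lack of overlap therefore largely follow from the call and are no separate support. The calls of Tlr2, Tlr13, Traf1, Traf3, Mapk9, Irak3 and Tollip were kept in each of the 20 alternatives. Of the other called genes, only Irak1 and Ikbke kept their calls with the array median subtracted. Most alternatives use the brightest probe alone, and a second probe of Mapk9 was 0.03 ± 0.13 and not called. The losses named for single genes below are mainly those from left-out arrays and are not a full list.

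Promoter sequences are shown for genes that rose and for a comparison gene, Tnip1, that did not pass the test on its brightest probe. They are given because NF-κB, the transcription factor at the end of the pathway, also acts on genes of the pathway. RefSeq promoters (GRCm38.p6) were found for 33 of the 44 genes, with 46 start sites, and their 250 bases upstream were searched on both strands for the κB consensus, for AGAACA (a hexamer of glucocorticoid receptor sites) and for TGANTCA (AP-1). The κB consensus matched in 6 of the 46 windows (13%), in Tlr2, Tlr3, Traf3, Tnfaip3, Tnip1 and Map3k7, and in 3.9% of all 32851 windows. AGAACA matched in 15.2% of the set's windows and 16.1% of all, and TGANTCA in 10.9% and 6.75%. Of the genes with a κB match, Tlr2, Traf3 and Tnfaip3 rose by log2 0.76, 0.58 and 0.45, while Tnip1, Map3k7 and Tlr3 were 0.02, 0.03 and 0.11. Of the genes with AGAACA, Tlr13, Irak1 and Tnfaip3 rose by 0.99, 0.54 and 0.45, Tollip and Ikbkg fell by 0.87 and 0.26, and Tab2 was 0.18. Of those with TGANTCA, Tnfaip3 rose, Ikbkg fell and Tlr9 was 0.20. These changes are those of the brightest probes. A second probe of Tnip1 was called lower (-0.24), and further probes of Irak1 (-0.04 and -0.24) and Ikbkg (-0.07) were not called. The other probes of Tollip also fell. Matches are letters only, and binding was not measured.

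Capitals below mark the κB matches, which overlap each other in Tlr2 and Tnip1, or, for Tlr13, the AGAACA hexamer; Irak3 is shown as a gene with a large rise and no match to the κB consensus. Each sequence runs 5′ to 3′ along the gene and ends at its start. The windows are Tlr2 at chr3:83841609-83841858 (minus strand), Traf3 at chr12:111166120-111166369 (plus), Tnfaip3 at chr10:19015411-19015660 (minus), Tnip1 at chr11:54962941-54963190 (minus), Tlr13 at chrX:106143025-106143274 (plus) and Irak3 at chr10:120201598-120201847 (minus).
Tlr2: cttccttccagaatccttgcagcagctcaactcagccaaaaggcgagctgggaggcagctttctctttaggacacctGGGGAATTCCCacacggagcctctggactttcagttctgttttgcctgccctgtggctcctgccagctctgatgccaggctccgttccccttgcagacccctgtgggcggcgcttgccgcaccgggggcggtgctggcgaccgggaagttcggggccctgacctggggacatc
Traf3: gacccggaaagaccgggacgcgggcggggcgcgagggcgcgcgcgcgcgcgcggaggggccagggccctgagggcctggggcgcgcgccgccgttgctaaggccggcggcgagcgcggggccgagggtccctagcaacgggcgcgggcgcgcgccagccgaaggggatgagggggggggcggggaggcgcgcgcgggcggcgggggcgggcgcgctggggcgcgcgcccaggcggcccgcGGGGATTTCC
Tnfaip3: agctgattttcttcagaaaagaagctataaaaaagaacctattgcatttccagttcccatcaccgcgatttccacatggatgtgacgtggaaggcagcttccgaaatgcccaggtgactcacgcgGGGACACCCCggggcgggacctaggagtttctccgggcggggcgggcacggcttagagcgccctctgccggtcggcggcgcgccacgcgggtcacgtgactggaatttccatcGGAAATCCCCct
Tnip1: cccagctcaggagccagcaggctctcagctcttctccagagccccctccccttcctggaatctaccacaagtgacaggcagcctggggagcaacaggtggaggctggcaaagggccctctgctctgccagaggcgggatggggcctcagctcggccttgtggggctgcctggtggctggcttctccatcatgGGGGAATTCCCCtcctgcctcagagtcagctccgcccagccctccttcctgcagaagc
Tlr13: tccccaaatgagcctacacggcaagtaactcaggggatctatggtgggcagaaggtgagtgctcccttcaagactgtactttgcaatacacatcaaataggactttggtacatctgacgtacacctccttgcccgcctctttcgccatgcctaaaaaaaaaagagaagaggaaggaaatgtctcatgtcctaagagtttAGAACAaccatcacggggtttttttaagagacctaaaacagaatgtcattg
Irak3: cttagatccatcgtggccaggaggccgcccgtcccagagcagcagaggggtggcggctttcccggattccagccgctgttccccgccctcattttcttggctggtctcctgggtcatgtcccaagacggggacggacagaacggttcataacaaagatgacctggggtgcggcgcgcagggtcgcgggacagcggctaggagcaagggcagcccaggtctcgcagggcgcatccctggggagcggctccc

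Among the receptors, Tlr2, Tlr13 and Tlr7 rose, Tlr6 fell, and Tlr1, Tlr3, Tlr4 and Tlr9 did not pass the test. Tlr2, the surface receptor for bacterial lipoproteins (probe on mm9 chromosome 3, 83640344 to 83640403), had log2 levels of 4.69 and 4.68 in EtoH, 5.43 and 5.36 in Dex, 5.51 and 5.40 in FF, 5.51 and 5.52 in VSG22, and 5.52 and 5.28 in VSGC12. The groups did not overlap, and the change was 0.76 ± 0.08 on the log2 scale (SE, 8 arrays against 2; adjusted p = 0.00044). Tlr13, the endosomal receptor for bacterial ribosomal RNA (chromosome X, 103355773 to 103355832), stood at 3.01 and 3.20 in EtoH, 4.28 and 4.28 in Dex, 4.13 and 4.07 in FF, 4.07 and 3.95 in VSG22, and 4.16 and 3.81 in VSGC12. Every glucocorticoid array was higher than both EtoH arrays, and the change was 0.99 ± 0.10 (adjusted p = 0.00047). Tlr6, which pairs with Tlr2 (chromosome 5, 65344365 to 65344424), moved the other way, by -0.35 ± 0.09 (adjusted p = 0.02), from 2.98 ± 0.06 (SD, n = 2) to a glucocorticoid mean of 2.64. Its call was lost without EtoH replicate 1 (-0.39) or replicate 2 (-0.30). Tlr1, the other partner of Tlr2, was -0.13 ± 0.09 (adjusted p = 0.29).

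Tlr4, the LPS receptor itself (chromosome 4, 66503470 to 66503529), had log2 levels of 1.99 and 2.13 in EtoH, 2.01 and 1.76 in Dex, 1.81 and 1.69 in FF, 1.99 and 2.03 in VSG22, and 1.84 and 1.66 in VSGC12. EtoH and glucocorticoid arrays overlapped, and the change of -0.21 ± 0.09 did not pass the test (adjusted p = 0.11; 95% interval -0.43 to 0.01). Cd14, the co-receptor that hands LPS to Tlr4 (chromosome 18, 36884969 to 36885028), was at 7.78 and 7.77 in EtoH, 7.79 and 7.74 in Dex, 7.87 and 7.82 in FF, 7.88 and 7.85 in VSG22, and 7.84 and 7.63 in VSGC12. Its change was 0.03 ± 0.07 (adjusted p = 0.76), with an interval of -0.14 to 0.19. Ly96, which encodes MD-2, the LPS-binding partner of Tlr4, differed from both. It stood at 2.80 and 2.65 in EtoH, 2.15 and 1.81 in Dex, 2.27 and 1.95 in FF, 2.35 and 2.25 in VSG22, and 1.91 and 1.52 in VSGC12. All 8 glucocorticoid arrays were below EtoH, by 0.70 ± 0.14 in the mean (1.62-fold lower, adjusted p = 0.0082). Its probe (chromosome 1, 16696289 to 16699561, a span longer than the probe) is in a Dex patch. This is a small area of a Dex array where neighbouring spots were bright on that array and on no array outside Dex. With such probes left out Ly96 has no value, and without both Dex arrays it kept its call. The call was lost without EtoH replicate 1 (-0.63, adjusted p = 0.075). Lbp, the serum protein that binds LPS, was well above background on 0 arrays, with levels from -6.05 to -4.69.

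**Figure D2:**
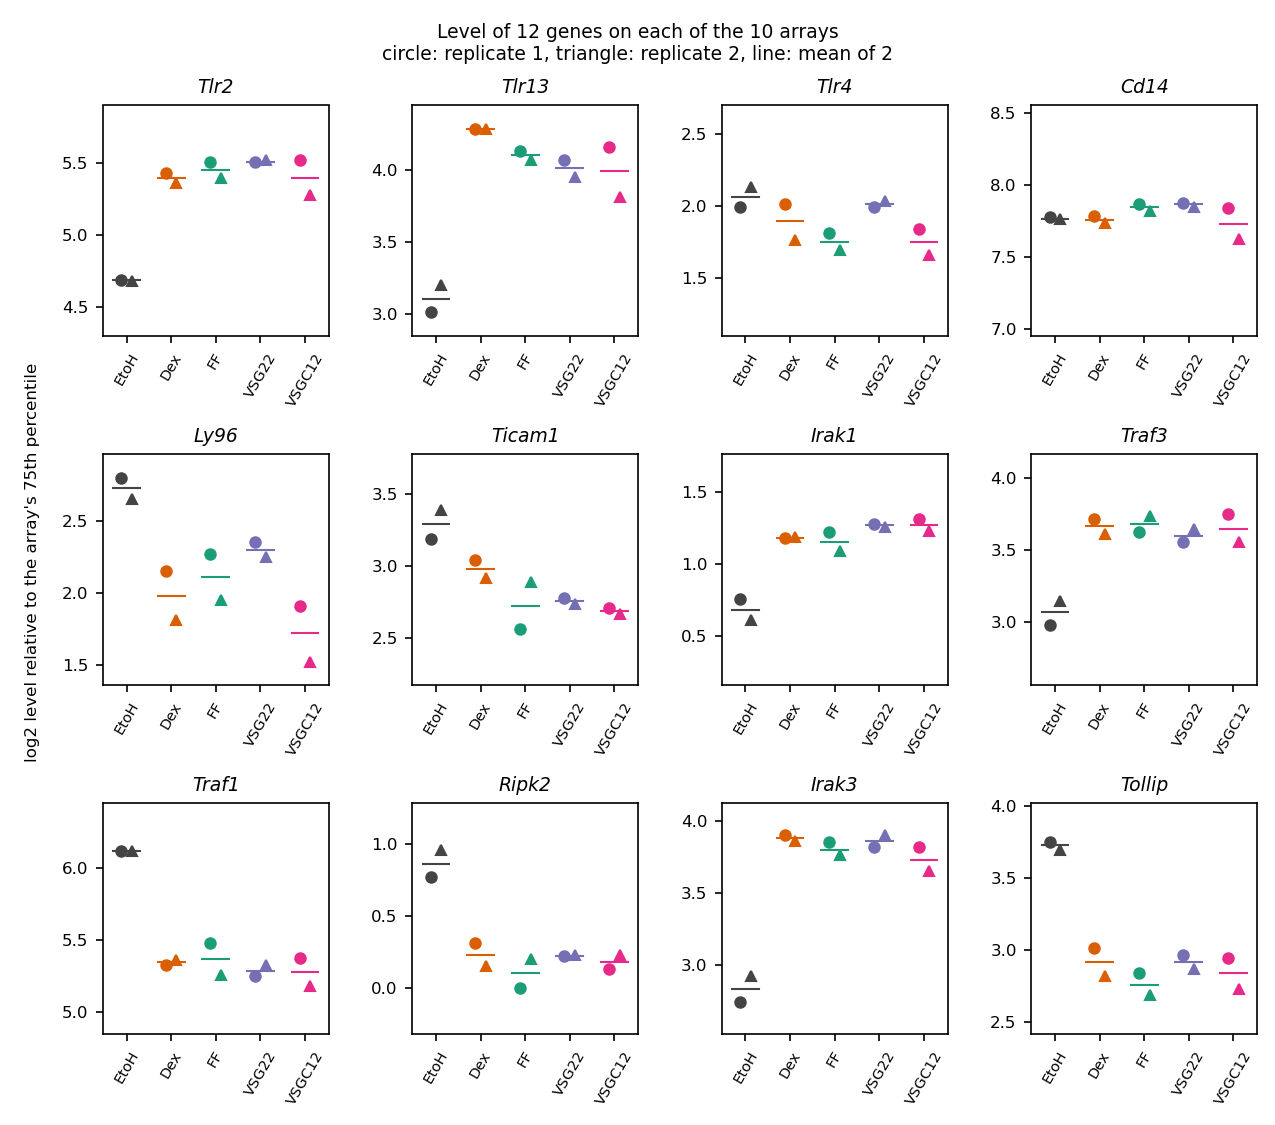
Each panel gives the log2 level of a gene relative to the array's 75th percentile, with circles for replicate 1, triangles for replicate 2 and a line at the mean of the 2 arrays. Tlr2, Tlr13, Irak1, Traf3 and Irak3 lie higher on every glucocorticoid array than on EtoH, and Ly96, Ticam1, Traf1, Ripk2 and Tollip lower, while Tlr4 and Cd14 overlap.

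The endosomal receptors did not share a pattern. Tlr7, a receptor for single-stranded RNA (chromosome X, 163742863 to 163742922), had a mean change of 0.40 ± 0.11 (adjusted p = 0.024) that was 0.91 with Dex and 0.35, 0.14 and 0.21 with FF, VSG22 and VSGC12. Its levels were 3.66 and 3.73 in EtoH, 4.39 and 4.82 in Dex, 4.04 and 4.04 in FF, 3.89 and 3.78 in VSG22, and 3.94 and 3.87 in VSGC12. Both Dex arrays were above every other array. The call for the mean was lost without EtoH replicate 1 (0.37) or replicate 2 (0.44) and without VSG22 replicate 1 (0.39). It was also lost with the array median subtracted (0.53), with another background correction (0.34) and with no filter on dim probes (0.40). A second, dimmer probe of Tlr7 changed by 0.21 ± 0.09 (adjusted p = 0.092); it is in a Dex patch. Tlr9, the receptor for unmethylated DNA, was 2.47 and 2.42 in EtoH, 2.20 and 3.19 in Dex, 2.40 and 3.37 in FF, 2.46 and 2.38 in VSG22, and 2.23 and 2.92 in VSGC12. Replicate 2 of Dex, FF and VSGC12 stood above the other 7 arrays, so the change of 0.20 ± 0.33 (adjusted p = 0.66) has a wide interval, -0.60 to 0.99. Tlr3, the receptor for double-stranded RNA, was 0.11 ± 0.19 (adjusted p = 0.65). Unc93b1, which carries these receptors to endosomes, was 0.15 ± 0.10 (adjusted p = 0.23). Tlr8 was well above background on 1 array, FF replicate 1, at -0.39, and ranged from -5.94 to -4.97 on the other 9.

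**Figure D3:**
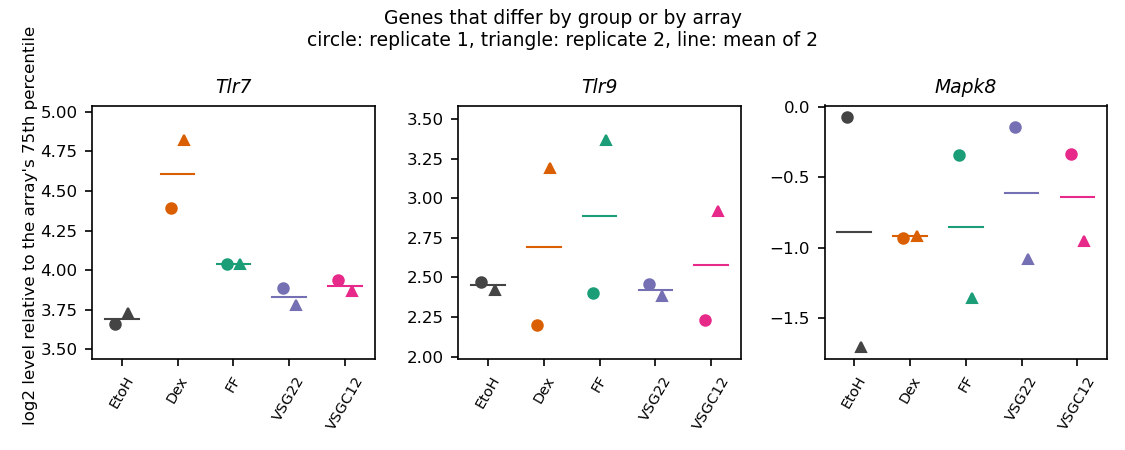
Log2 levels relative to the array's 75th percentile are plotted for Tlr7, Tlr9 and Mapk8 (circles replicate 1, triangles replicate 2, lines means of 2). Tlr7 is highest on both Dex arrays, Tlr9 on replicate 2 of Dex, FF and VSGC12, and Mapk8 is higher on replicate 1 than on replicate 2 in each group but Dex, by most in EtoH (-0.07 and -1.71).

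The adaptors also split. Myd88, used by nearly every Toll-like receptor (chromosome 9, 119245322 to 119245381), was 3.07 and 3.25 in EtoH, 3.61 and 3.49 in Dex, 3.31 and 3.38 in FF, 3.47 and 3.54 in VSG22, and 3.36 and 3.19 in VSGC12. It rose by 0.26 ± 0.08 (adjusted p = 0.037), but VSGC12 replicate 2 lay within the EtoH range, and 14 of 20 alternatives ended the call, such as leaving out EtoH replicate 1 (0.17) or both Dex arrays (0.22). Tirap, the bridge from Tlr2 and Tlr4 to MyD88 (chromosome 9, 34994936 to 34994995), fell by 0.47 ± 0.07 (adjusted p = 0.0024). Its levels were 1.63 and 1.74 in EtoH, 1.40 and 1.31 in Dex, 1.14 and 1.16 in FF, 1.28 and 1.25 in VSG22, and 1.18 and 0.98 in VSGC12. No glucocorticoid array reached the EtoH arrays. Ticam1, which encodes TRIF (chromosome 17, 56409265 to 56409324), was 3.19 and 3.39 in EtoH, 3.04 and 2.92 in Dex, 2.56 and 2.89 in FF, 2.78 and 2.74 in VSG22, and 2.71 and 2.67 in VSGC12. It fell by 0.50 ± 0.10 (adjusted p = 0.0069), a call lost without EtoH replicate 2 (-0.41). Ticam2, which encodes TRAM (chromosome 18, 46718692 to 46718751), was -1.13 and -0.93 in EtoH, -0.94 and -1.10 in Dex, -1.40 and -1.17 in FF, -1.05 and -1.24 in VSG22, and -1.40 and -1.32 in VSGC12. The groups overlapped, with a change of -0.17 ± 0.10 (adjusted p = 0.2).

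Of the 7 measured IRAK and TRAF genes other than Irak3, Irak1 and Traf3 rose and Irak2, Traf1 and Traf6 fell. Traf1 (chromosome 2, 34798882 to 34798941) was 6.12 and 6.12 in EtoH, 5.33 and 5.36 in Dex, 5.48 and 5.26 in FF, 5.25 and 5.33 in VSG22, and 5.38 and 5.18 in VSGC12. The gap to EtoH was wide against the spread within groups, at -0.80 ± 0.08 (adjusted p = 0.0005). Traf3, the ubiquitin ligase of the interferon branch (chromosome 12, 112505252 to 112505311), went the other way. It stood at 2.98 and 3.15 in EtoH, 3.72 and 3.61 in Dex, 3.63 and 3.74 in FF, 3.56 and 3.65 in VSG22, and 3.75 and 3.56 in VSGC12, a rise of 0.58 ± 0.08 (adjusted p = 0.0018). Traf6, the ubiquitin ligase of the MyD88 branch (chromosome 2, 101540660 to 101540719), was 0.78 and 0.76 in EtoH, 0.33 and 0.48 in Dex, 0.09 and 0.29 in FF, 0.12 and 0.21 in VSG22, and 0.17 and 0.21 in VSGC12. It fell by 0.54 ± 0.08 (adjusted p = 0.0018). This probe is in a Dex patch, and a dimmer one that is not was -0.30 ± 0.20 (adjusted p = 0.25). Traf2 was -0.33 ± 0.12 (adjusted p = 0.069).

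Irak1, a kinase of the MyD88 complex, rose by 0.54 ± 0.07 (adjusted p = 0.0012) on its brightest probe (chromosome X, 71259533 to 71259592), from 0.76 and 0.61 in EtoH to 1.18 and 1.19 in Dex, 1.22 and 1.09 in FF, 1.28 and 1.26 in VSG22, and 1.31 and 1.23 in VSGC12. Its other probes did not follow: they were -0.04 ± 0.09 (adjusted p = 0.75) and -0.24 ± 0.16 (adjusted p = 0.27). With the mean of the 3 probes the change was 0.09 and not called. Irak2, the kinase that sustains late signalling (chromosome 6, 113644904 to 113644963), fell by 0.47 ± 0.08 (adjusted p = 0.0036), and its second probe by 0.67 ± 0.12 (adjusted p = 0.0048). Irak4, the first kinase of the complex, was -0.08 ± 0.08 (adjusted p = 0.49) on its brightest probe and -0.07 ± 0.12 on the other.

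Of 10 kinase-complex genes, Ikbke and Ikbkb rose and Ripk2, Tab3, Tbk1 and Ikbkg fell. Ripk2, the kinase that relays NOD receptor signals and is induced by LPS (chromosome 4, 16059975 to 16065245), had log2 levels of 0.77 and 0.96 in EtoH, 0.31 and 0.15 in Dex, 0.00 and 0.20 in FF, 0.22 and 0.23 in VSG22, and 0.13 and 0.23 in VSGC12. All glucocorticoid arrays were lower, by 0.68 ± 0.09 (adjusted p = 0.0012). Ikbke, which encodes IKKε (chromosome 1, 133151809 to 133151868), was 0.89 and 0.88 in EtoH, 1.78 and 1.37 in Dex, 1.16 and 1.65 in FF, 1.51 and 1.76 in VSG22, and 1.20 and 1.41 in VSGC12. It rose by 0.60 ± 0.16 (adjusted p = 0.023) with a wide spread within the glucocorticoid groups, and the call was lost without EtoH replicate 1 (0.60) or replicate 2 (0.59). Tbk1, the kinase that works beside IKKε, fell by 0.39 ± 0.05 (adjusted p = 0.0015).

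In the TAK1 complex, the ubiquitin-binding subunit Tab3 fell by 0.45 ± 0.08 (adjusted p = 0.0049; -0.37 and not called without EtoH replicate 2), while Tab2 was 0.18 ± 0.07 (adjusted p = 0.065) and the kinase gene Map3k7 0.03 ± 0.09 (adjusted p = 0.81). In the IκB kinase complex, Ikbkb was 0.23 ± 0.08 (adjusted p = 0.044), which 16 of 20 alternatives no longer called, each that left out an array among them, and Chuk -0.12 ± 0.07 (adjusted p = 0.19). The scaffold gene Ikbkg was -0.26 ± 0.06 (adjusted p = 0.011). Its brighter probe is in a Dex patch, the other was -0.07 ± 0.09 (adjusted p = 0.56), and 8 of 20 alternatives ended the call, among them those without EtoH replicate 1 (-0.16) or replicate 2 (0.03), without VSG22 replicate 1 (-0.04) and without FF replicate 1 (-0.06), where that other probe became the brighter. Ripk1 was 0.08 ± 0.10 (adjusted p = 0.54).

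Of the 4 MAP kinase genes, Mapk9 (JNK2) rose, while Map3k8 (TPL2), Mapk14 (p38α) and Mapk8 (JNK1) did not pass the test. Mapk9 (chromosome 11, 49699496 to 49699555) was 0.37 and 0.78 in EtoH, 1.46 and 1.52 in Dex, 1.44 and 1.23 in FF, 1.43 and 1.30 in VSG22, and 1.51 and 1.16 in VSGC12. The rise of 0.81 ± 0.14 (adjusted p = 0.0038) was 1.09 on the first slide and 0.52 on the second. A second probe of Mapk9 (chromosome 11, 49677113 to 49677172) was 0.03 ± 0.13 (adjusted p = 0.87), and the mean of the 2 probes changed by 0.42, still called. Map3k8 was 0.03 ± 0.06 and Mapk14 -0.02 ± 0.09 (adjusted p = 0.74 and 0.87), with intervals from -0.12 to 0.17 and from -0.22 to 0.19. Mapk8 was 0.14 ± 0.48, with the largest spread within groups of the 42 genes (pooled SD 0.71, against a median of 0.10).

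**Figure D4:**
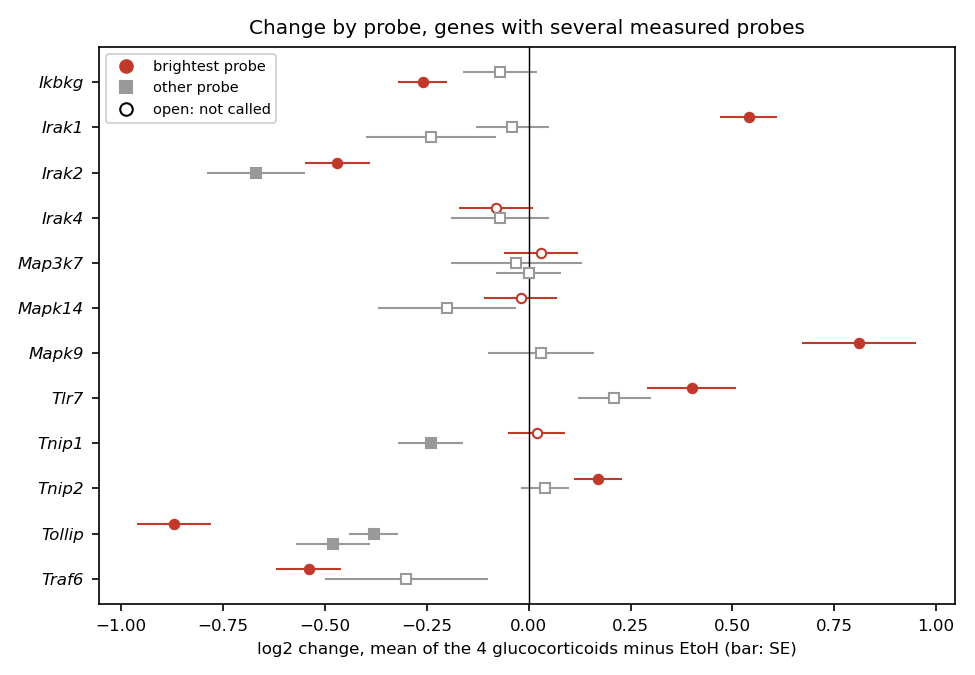
For the 12 genes with more than 1 measured probe, the log2 change of each probe (mean of the 4 glucocorticoids minus EtoH) is shown with its SE; circles are the brightest probe, squares the others, and open symbols were not called. Probes of Tollip and Irak2 fell together, whereas those of Irak1 and Mapk9 differ.

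Among the 6 inhibitors, Irak3, Tnfaip3 and Tnip2 rose, Tollip fell, and Tnip1 and Sigirr did not pass the test. Irak3 (chromosome 10, 119578999 to 119579058) stood at 2.74 and 2.92 in EtoH, 3.90 and 3.86 in Dex, 3.85 and 3.76 in FF, 3.82 and 3.90 in VSG22, and 3.82 and 3.65 in VSGC12. The 8 glucocorticoid arrays lay within a narrow band above EtoH, at 0.99 ± 0.08 (adjusted p = 0.00014). Tollip (chromosome 7, 149067713 to 149067772) was 3.75 and 3.70 in EtoH, 3.02 and 2.82 in Dex, 2.84 and 2.69 in FF, 2.97 and 2.87 in VSG22, and 2.95 and 2.73 in VSGC12. It fell by 0.87 ± 0.09 (adjusted p = 0.00052), and its other probes fell by 0.48 ± 0.09 and 0.38 ± 0.06 (adjusted p = 0.006 and 0.0021). Tnfaip3, which encodes the ubiquitin-editing enzyme A20, rose by 0.45 ± 0.07 (adjusted p = 0.003), from 4.66 ± 0.09 (SD, n = 2) in EtoH to 4.87 ± 0.12 in Dex, 5.13 ± 0.03 in FF, 5.23 ± 0.02 in VSG22 and 5.21 ± 0.08 in VSGC12. Of the A20-binding proteins, Tnip2 was 0.17 ± 0.05 (adjusted p = 0.039), which 17 of 20 alternatives no longer called, each that left out an array among them. Tnip1 was 0.02 ± 0.07 on its brightest probe and fell by 0.24 ± 0.08 (adjusted p = 0.043) on its second. Sigirr, an inhibitory receptor, was near background, with a change of 0.00 ± 0.23.

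Each glucocorticoid was also compared with EtoH; these comparisons share the EtoH arrays. With Dex, 10 genes rose and 9 fell, 45.2% called beside 32.2% of all genes (16.5% higher and 15.7% lower). With FF, 8 rose and 12 fell, 47.6% beside 37.1% (17.9% and 19.2%). VSG22 gave 10 and 10, 47.6% beside 30.6% (16.1% and 14.5%), and VSGC12 7 and 12, 45.2% beside 35.5% (17.2% and 18.3%). Without EtoH replicate 1, the Dex count was 11 and that of VSG22 12, and the VSG22 count was 11 without VSG22 replicate 1 and 10 without replicate 2. Irak3 changed by log2 1.05 with Dex, 0.97 with FF, 1.03 with VSG22 and 0.90 with VSGC12. The falls of Traf1 were likewise close, at 0.77, 0.75, 0.83 and 0.84. Ly96 ran from -0.43 with VSG22 (adjusted p = 0.13) to -1.01 with VSGC12 (adjusted p = 0.0066), with -0.75 for Dex and -0.61 for FF. Tnfaip3 was 0.21 with Dex (adjusted p = 0.12) and rose by 0.47, 0.57 and 0.55 with FF, VSG22 and VSGC12.

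**Figure D5:**
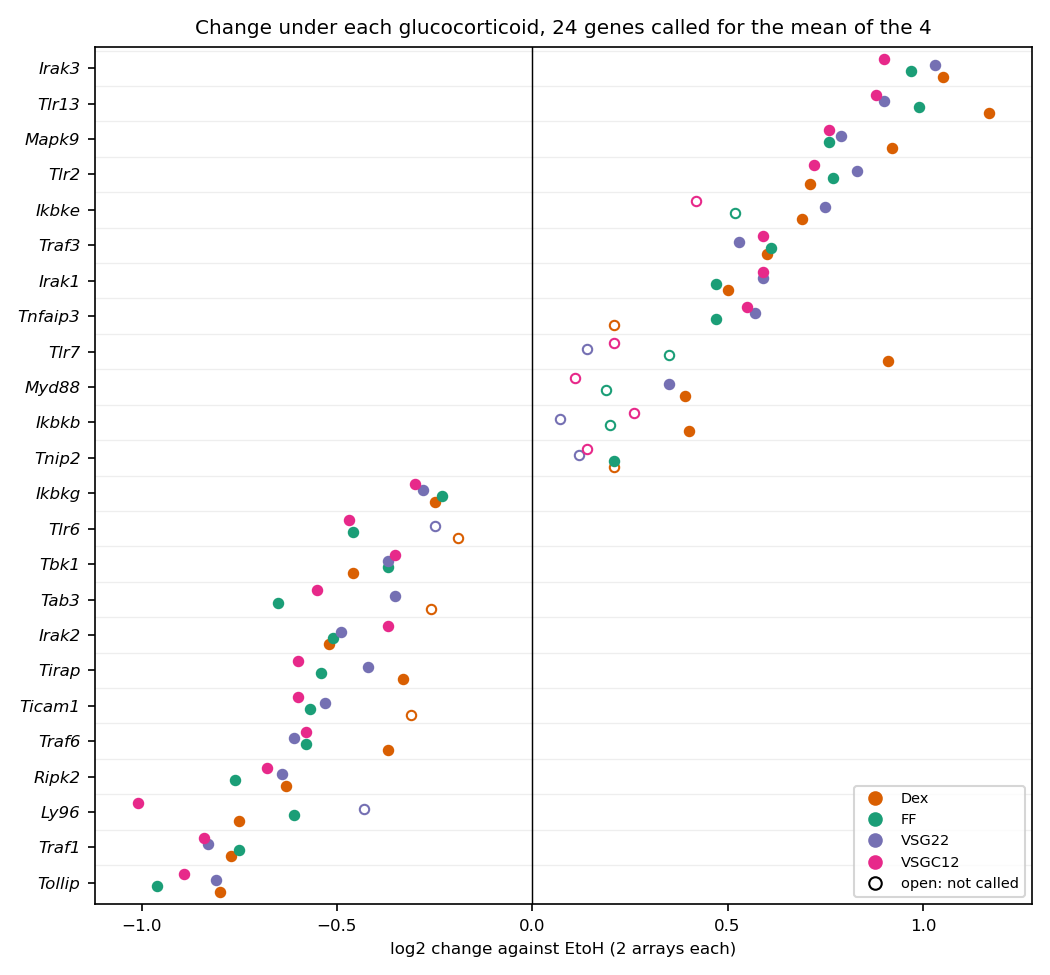
The log2 change against EtoH is plotted for each glucocorticoid (2 arrays each) and each of the 24 genes called for the mean of the 4; open circles were not called for that glucocorticoid. The points of Irak3, Traf3, Irak1 and Traf1 lie close together, whereas Tlr7 stands at 0.91 with Dex and between 0.14 and 0.35 with the others.

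The 4 glucocorticoids, all at 100 nM and 16 hours, were then compared with each other in 6 pairs. Dex and FF are fluorinated steroids and FF carries a furoate ester; for VSG22 and VSGC12 only the code names are given. No gene of the set passed the limma test in any pair or in the F-test among the 4, nor with adjustment over the 6 pairs together. The background was as low: 0.366% of all genes were called between FF and Dex, 0.549% between VSG22 and Dex, 0.394% between VSGC12 and Dex, 0% between VSG22 and FF, 0.00555% between VSGC12 and FF, 0% between VSGC12 and VSG22, and 0.255% in the F-test. At an unadjusted p under 0.05, the set had 5, 5, 9, 2, 0 and 1 genes in these pairs, in the same order, and 3 in the F-test. As shares of the set these are 11.9%, 11.9%, 21.4%, 4.76%, 0% and 2.38%, beside 14.4%, 16.7%, 14.8%, 9.47%, 4.21% and 7.15% of all genes, and in the F-test 7.14% beside 13.5%. The median difference within a pair was between 0.08 and 0.14 in size on the log2 scale, and the 95% interval of a difference had a median reach of 0.26 to either side.

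The largest difference in each pair with Dex was that of Tlr7. It was -0.56 for FF minus Dex (95% interval -0.90 to -0.23, adjusted p = 0.19), -0.77 for VSG22 minus Dex (-1.10 to -0.44, adjusted p = 0.079) and -0.70 for VSGC12 minus Dex (-1.03 to -0.37, adjusted p = 0.14). With limma p-values adjusted over the 6 pairs together, these were 0.27, 0.18 and 0.21. Without Dex replicate 1, Tlr7 passed in all 3 pairs (-0.78, -0.99 and -0.92) and in the F-test, and without Dex replicate 2 only against VSG22 (-0.55). Between VSGC12 and VSG22 the largest difference was that of Ly96, at -0.58 (-1.01 to -0.14, adjusted p = 0.68), and the same gene led between VSGC12 and FF, at -0.39 (-0.83 to 0.04). Between VSG22 and FF it was Tlr9, at -0.47 (-1.47 to 0.54). For Irak3 the difference was -0.13 (-0.36 to 0.11) between VSGC12 and VSG22 and -0.08 (-0.31 to 0.15) between FF and Dex.

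A list of 77 other genes of the pathway, such as ubiquitin editors, MAP kinase kinases, NF-κB subunits and further co-receptors, gives the setting. Of these, 68 were measured, 11 rose and 22 fell in the mean of the 4 (48.5% called, 16.2% higher and 32.4% lower, with a median of -0.04), beside 44.2%, 21.6% and 22.5% of all genes. With the array median subtracted 4 rose and 4 fell, so 8 of 68 were called, beside 3760 of all 18028 genes. Without EtoH replicate 1 the count was 17 of 68, beside 4893 of 18269 genes. It was also 17 without EtoH replicate 2, beside 4717 of 18827. The larger share of this list in the main processing was therefore not kept in these 3 alternatives. The highest was Trem1, a receptor that amplifies Toll-like receptor signals. It stood at 1.44 and 1.52 in EtoH, 2.71 and 3.32 in Dex, 3.47 and 3.94 in FF, 2.79 and 2.69 in VSG22, and 3.51 and 4.04 in VSGC12, a rise of 1.83 ± 0.21 (adjusted p = 0.00072). Il1rl1, which encodes the interleukin-33 receptor ST2, rose by 1.74 ± 0.15 and Nfkb1, the p105 precursor, by 0.65 ± 0.11. The lowest was Scimp, a membrane scaffold of Toll-like receptors. It was 5.36 and 5.47 in EtoH, 4.27 and 4.35 in Dex, 3.75 and 3.70 in FF, 3.64 and 3.51 in VSG22, and 3.59 and 3.42 in VSGC12, a fall of 1.64 ± 0.07 (adjusted p = 1.8e-05), measured by a probe in a Dex patch. Traf5, a relative of the other TRAF genes, fell by 0.94 ± 0.08, and Cd36, a scavenger receptor that assists Tlr2, by 0.88 ± 0.11. For all 6 the glucocorticoid arrays and EtoH did not overlap, as for 22.9% of all genes (above) and 24.7% (below). These 6 were picked as the 3 highest and 3 lowest called, so this largely follows from the choice and is no separate support.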

How the data were processed

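RNA from RAW264.7 cells was measured on 10 single-channel arrays, 2 for each of 5 groups. Per the file headers, the deposited values are intensity: the processed signal of Agilent Feature Extraction (version 10.7.3.1), after background subtraction and detrending within an array, with no scaling across arrays. Other deposited columns hold flags per spot: outlier, non-uniform, saturated, and well above background. The submitters' processing notes list limma with no step named.

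Outlier and non-uniform spots were dropped, the log2 signals of each probe's spots were averaged, and the 75th percentile of each array over its probes was subtracted. A gene was measured if both arrays of some group had a probe of it well above background, and was represented by its brightest such probe. Of 55681 probes, 26407 were named by accession through the GRCm38.p6 gene table, 3864 by symbol and 735 by an older synonym; the other 24675 have the array file's own name. This left 18051 genes, 160 of which lack a value on some array. A Dex patch is a spot with 3 or more of its 24 neighbours well above background on a Dex array but on no array outside Dex; 1497 genes (8.29%) have such a probe.

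All arrays were fitted together with limma 3.58.1 in R 4.3.3, by lmFit and eBayes, with the group and nothing else in the model, 5 residual degrees of freedom and 1.81 prior ones. Tests were two-sided, adjusted over all genes by the Benjamini-Hochberg method within a comparison, with a threshold of 0.05. A further probe of a gene was tested in the same model over all measured probes. The design table fixed per-array values for members called with a log2 change of at least 0.5, for members that differed between glucocorticoids and for the LPS receptor with its adaptors; other pathway genes were named by the 3 highest and 3 lowest. The members, lists and tests were chosen with earlier results of these data known. Data were simulated with the real means and spreads of 17891 genes. Changes of 0.5, 1 and 2 on the log2 scale were put into 67, 67 and 66 genes, in the 8 glucocorticoid arrays. The fit recovered 40.3%, 71.6% and 93.9% of them, with 9 false calls. Far fewer genes were changed than were called in the real data. The Benjamini-Hochberg cutoff depends on that share, so these rates are not those of the real comparisons. The replicate number follows the 2 slides; between groups, deviations of same-slide arrays from their group means had r of -0.04 to 0.32 across genes, so the slide is a block in an alternative alone.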

Additional observations from a re-analysis of the deposited data

How the results depend on the processing

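Over 20 alternatives, 751 of 838 values of single genes kept their side of the threshold, 82 lost a call and 4 gained one. Of the 751, 396 were called with their direction kept, and 20, from 9 genes not called in either setting, changed sign, such as Mapk8 (-0.68 to 0.95) and Tlr3 (-0.23 to 0.46). The sign of 1 called gene reversed: Ikbkg without EtoH replicate 2 (0.03), where its other probe was the brighter (-0.27 to 0.03 over the single arrays left out). With the array median subtracted, 9 genes of the set were called for the mean of the 4 (main 24), 4 for Dex, 4 for FF, 4 for VSG22, 3 for VSGC12 and 8 of the other pathway genes, 4 higher and 4 lower (main 33). With no filter on dim probes, 44 genes of the set were measured. Of these, 17 were called for the mean of the 4, beside 4925 of 36290 genes in all. The main filter keeps 42 of the 44 but only 18051 of all genes, so these 2 shares also differ in detection. Without the filter 9 were called for Dex, 10 for FF, 9 for VSG22, 12 for VSGC12 and 19 of the 77 other pathway genes. With the array median subtracted, the total was 3760 of 18028 genes, as in the main processing 7961 of 18028. Shares of all genes were not computed for single glucocorticoids in the alternatives. Leaving out single arrays gave 16 to 23 for the mean of the 4, 11 to 17 for Dex, 14 to 19 for FF, 10 to 20 for VSG22, 15 to 19 for VSGC12, 17 to 35 other pathway genes, 0 to 1 in the F-test and 0 to 1 between pairs. The cause was not tested. The calls between pairs were Tlr7 without either Dex array and, without FF replicate 2, Tlr8, which then rests on the lone bright spot of FF replicate 1. A replicate block gave 24 genes for the mean of the 4; the numbers follow the slides, and same-slide arrays deviated together with r over 0.1 in 5 of 10 pairs of groups (up to 0.32, Dex and VSGC12) and not in the other 5 (down to -0.04, Dex and VSG22). Over all genes, 7961 were called in the main processing, 3760 with the array median subtracted, 4925 with no filter, 4893 without EtoH replicate 1 and 4717 without EtoH replicate 2. Sigirr was well above background on 5 of 10 arrays, Tlr8 on 1 and Lbp on 0, which limits their values. With 2 arrays a group, the spread within groups of Mapk8 (pooled SD 0.71) and Tlr9 (0.49) gives wide intervals.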

Other observations

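The array pattern of Tlr9, chosen after its values were seen, was looked for in all genes. On replicate 2 of Dex, FF and VSGC12, Tlr9 lay at least 0.45 on the log2 scale above the other 7 arrays. Of 17891 genes with a value on every array, 87 (0.486%) had these 3 arrays at least 0.5 above the others and 1 had them at least 0.5 below. Tlr9 itself, at 0.45, is under that cutoff and not among the 87. Other sets of 3 arrays were not examined. The array slide is shared by these 3 arrays with replicate 2 of EtoH and VSG22, on which Tlr9 was 2.42 and 2.38. The source of the pattern, the slide included, was not tested.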
